A study of Rattus norvegicus with 24 samples.

Results

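Potassium channel genes, taken as every gene symbol in the deposited table that starts with Kcn apart from 1 that the rule leaves out, make up 90 of the 17420 genes. They fall into 20 subfamilies by the letters after Kcn, and 40 of the 90 had a mean of at least 0.1 TPM (the length-scaled share of reads that the authors deposited) over the 24 pups, which is called expressed here. RNA was sequenced from the hippocampus and neocortex of Sprague-Dawley rat pups at embryonic day 18, with 6 pups in each of 4 maternal treatment groups and 3 pups from each of 2 litters per group. The Saline dams were injected with saline on gestational day 17. MAM dams received methylazoxymethanol acetate, a DNA-methylating agent, at 22 mg/kg on gestational day 17, and Poly I:C dams received polyinosine:cytosine, a double-stranded RNA mimic that activates innate immunity, at 7.5 mg/kg on that day. Both drugs were given intraperitoneally, and tissue was taken 18 hours after the injections. Low Protein dams ate a diet of 6.1% protein from gestational day 11 to 18, and control rats ate an isocaloric diet of 20.3% protein over the same days. The sample annotation used here lists the control diet for the Saline group and no diet for MAM or Poly I:C. The paper does not name the dams that ate the control diet or say whether Low Protein dams were injected. Pups of both sexes were combined. All groups are one strain and each group rests on 2 dams, so pups of a litter are not independent and p-values below measure the spread between pups.

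Potassium channels let potassium ions leave or enter a cell and so set its resting potential, the shape of its action potentials and how often it fires. Voltage-gated channels (Kcna to Kcnd, Kcnh and Kcnq) are tetramers of pore subunits, and several relatives (Kcnf1, Kcng, Kcns, Kcnv) form no channel alone but join other pore subunits and change their gating. Inward rectifiers (Kcnj) and two-pore channels (Kcnk) hold the resting potential, calcium- or sodium-activated channels (Kcnn, Kcnma1, Kcnt) follow firing, and Kcnab, Kcne, Kcnip and Kcnmb genes encode accessory subunits. Young neurons in the embryonic cortex already carry some of these currents while progenitors rest through others.

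The promoters of 3 genes are given first. Kcnj14 was higher and Kcnf1 lower in Poly I:C at an unadjusted limma p under 0.05, and neither passed adjustment. Kcne5 had the highest mean TPM of all 90. The 250 bases before the annotated start are printed 5′ to 3′ on the strand of the gene, from RefSeq on GRCr8, with each CG dinucleotide in capitals. They lie at chr1:105437259-105437508, chr6:45693707-45693956 and chrX:110727850-110728099, all on the minus strand.
Kcnj14: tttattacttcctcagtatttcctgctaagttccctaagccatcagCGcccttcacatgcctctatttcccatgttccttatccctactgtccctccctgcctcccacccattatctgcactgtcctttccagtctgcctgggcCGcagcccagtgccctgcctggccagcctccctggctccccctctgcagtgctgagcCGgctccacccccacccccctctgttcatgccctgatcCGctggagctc
Kcnf1: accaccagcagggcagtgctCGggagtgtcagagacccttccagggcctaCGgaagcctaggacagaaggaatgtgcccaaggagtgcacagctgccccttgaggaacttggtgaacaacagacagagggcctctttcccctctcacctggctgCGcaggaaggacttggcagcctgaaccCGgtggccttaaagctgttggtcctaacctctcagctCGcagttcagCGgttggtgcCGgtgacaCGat
Kcne5: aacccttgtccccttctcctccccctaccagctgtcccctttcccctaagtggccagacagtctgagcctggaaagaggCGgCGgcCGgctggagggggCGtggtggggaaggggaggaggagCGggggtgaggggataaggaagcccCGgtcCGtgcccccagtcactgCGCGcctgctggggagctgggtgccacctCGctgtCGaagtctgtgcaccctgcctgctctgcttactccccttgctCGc
The Kcnj14 window held 4 CG dinucleotides, the Kcnf1 window 8 and the Kcne5 window 12, against a median of 5 over all 33469 promoter windows of that length. None of the 3 held GGGCGG or its reverse complement CCGCCC, the core of the GC box, which stood in 30.5% of all windows and in 33 of the 67 windows (49.3%) of the 61 potassium channel genes with an entry. The median window of an expressed member held 12 CG dinucleotides and that of a member below 0.1 TPM held 11.5. These letters describe the windows and say nothing of binding.

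Mean levels of the 90 genes ran from 0.000200 TPM for Kcna10 to 4.00 TPM. The highest was that of Kcne5, an accessory subunit known to inhibit Kcnq1 channels, followed by 2.98 TPM for Kcnf1 (the modifier subunit Kv5.1). Kcnj11, the pore of the ATP-sensitive channel that closes when a cell is rich in energy, stood at 2.50 TPM and Kcne2, an accessory subunit known from the choroid plexus, at 2.34 TPM. The modifier subunit Kcng1 (Kv6.1) followed at 2.29 TPM and the inward rectifier Kcnj14 (Kir2.4) at 2.24 TPM. In all, 12 of the 90 had a mean of 1 TPM or more. The median of the 40 expressed members was 0.549 TPM, against 1.13 TPM over the 9879 genes of the table at 0.1 TPM or more. The expressed share was 44.4% of the members and 56.7% of the table.

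**Figure D1:**
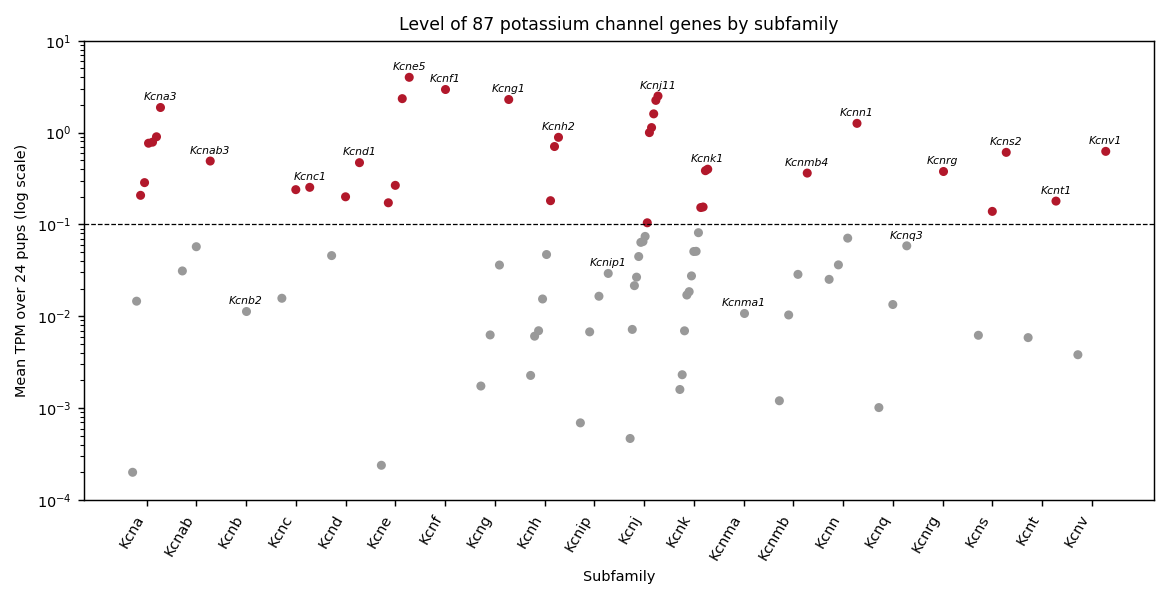
Mean TPM over 24 pups (log axis) of 87 of the 90 genes, one point a gene, by subfamily on the horizontal axis; red points are at or above the dashed line at 0.1 TPM and the highest gene shown of each subfamily is named. Kcne5 at 4.00 TPM is the highest of all, and the Kcnip points all lie below the line.

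Subfamilies differed in how many members reached 0.1 TPM. The deposited TPM falls with the span of a gene (next paragraphs), so these counts and the ranks above are not those by reads. By the read estimate given there, Kcne5, with a span of 616 bases, had a mean of 122 reads. Kcng1 had 3789 reads, and Kcnip1, at 0.0293 TPM, had 531. Among the Kcna genes, which encode the Kv1 pores found at axons, 6 of 8 were expressed, led by Kcna3 at 1.88 TPM and Kcna6 at 0.900 TPM. Of the Kcnj inward rectifiers 6 of 14 were expressed, of the Kcnk two-pore channels 4 of 13 and of the Kcnh genes (the ether-à-go-go family) 3 of 8. The Kcnk genes were led by Kcnk1 at 0.399 TPM and Kcnk15 at 0.385 TPM, and the Kcnh genes by Kcnh2 (the ERG1 channel) at 0.888 TPM and Kcnh4 at 0.705 TPM. Kcne had 4 of 5. Of the Kcnc genes, the Kv3 pores of fast-firing neurons, Kcnc1 stood at 0.253 TPM and Kcnc4 at 0.239 TPM. The Kv4 genes Kcnd1 and Kcnd3 stood at 0.470 and 0.20 TPM.
Several subfamilies had a single expressed member, among them Kcnab3 (0.490 TPM), Kcnmb4 (0.362 TPM), the small-conductance channel Kcnn1 (1.26 TPM), the sodium-activated channel Kcnt1 (0.179 TPM) and Kcnv1 (0.624 TPM). Kcnrg, which encodes a regulator and no channel, stood at 0.383 TPM. No Kcnip or Kcnma gene reached 0.1 TPM.

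The line at 0.1 TPM was not a line between present and absent. Just above it lay Kcnj16 (0.104 TPM) and Kcns1 (0.139 TPM), and just below it Kcnk3 (0.0813 TPM), Kcnj10 (0.0741 TPM) and Kcnn2 (0.0709 TPM). Deposited values times the span of the gene on the genome fell on whole multiples of a step for each pup, for 49.1 to 54.1% of low values within 0.05 of a whole number against 10% by chance. The length that scales them is therefore close to the span with introns, and genes with long introns get low TPM. The median span was 14925 bases in expressed members and 61346.5 bases in the 50 others. Reads estimated from these steps came to between 25 and 65 M per pup.
By that estimate the A-type channel Kcnd2 had a mean of 1116 reads a pup at 0.0458 TPM, Kcnn2 had 1548 reads, the M-current gene Kcnq3 had 856 reads at 0.0585 TPM and the G-protein-gated Kcnj6 had 786 reads at 0.0651 TPM. The large-conductance channel Kcnma1 had 367 reads at 0.0108 TPM. Of the 50 members below the line, 41 had at least 10 estimated reads and 22 at least 100. At the bottom, Kcna10 and Kcne1 stood at the offset of 0.0001 in 23 of 24 pups each. Also below the line were Kcnab2 at 0.0572 TPM, Kcnmb2 at 0.0286 TPM, Kcnb2 at 0.0114 TPM, Kcnt2 at 0.00586 TPM and Kcnv2 at 0.00381 TPM. No member stood at the offset in all 24, 10 did in some pups, and 0 of the 40 expressed members did.

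Expressed potassium channel genes were mostly a little lower than Saline in each treated group, and no member passed correction for multiple testing. With limma on log2 TPM over all 9879 genes, 32, 31 and 31 of 40 members were lower in the treated groups, taken here and below in the order Low Protein, MAM, Poly I:C where 3 values follow each other. Their median log2 fold changes were -0.15, -0.15 and -0.09. Over all genes the medians were -0.01, -0.06 and 0.01, and 53.9%, 71.5% and 46.8% of genes were lower. The MAM share of members is thus near that of all genes, and when pups were rescaled by the median of ratios or by the upper quartile it was 26 lower and 14 higher (65.0% lower), where 52.6% and 57.0% of all genes were lower. The 3 comparisons share the 6 Saline pups, so their like direction is not independent. At an unadjusted p under 0.05, 5, 2 and 6 members passed (12.5%, 5.0% and 15.0%), against 7.78%, 10.6% and 9.87% of all genes.
By direction, all 5 in Low Protein were lower, where 4.84% of all genes were lower and 2.95% higher at that p. Both in MAM were lower, where 8.15% of all genes were lower and 2.43% higher. In Poly I:C 5 were lower and 1 higher, where the shares of all genes were 5.53% and 4.34%. An F test over the 4 groups passed 4 members (10.0%) against 14.8% of all genes. The lowest Benjamini-Hochberg adjusted p of a member in limma was 0.584, 0.455 and 0.299 in the 3 comparisons and 0.0849 in the F test. No member had groups that failed to overlap with Saline, while 0.709%, 0.931% and 0.456% of all genes did. By the exact permutation test 7, 5 and 4 members gave p under 0.05, against 9.76%, 13.8% and 8.05% of all genes (17.5%, 12.5% and 10.0% of members), among them Kcnc1 and Kcnf1 in Low Protein and Kcna4, Kcnc1 and Kcnk2 in MAM, which limma did not pass. With a median standard error of 0.16 on the log2 scale, differences near the medians above could not be told from 0 for a single gene.

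**Figure D2:**
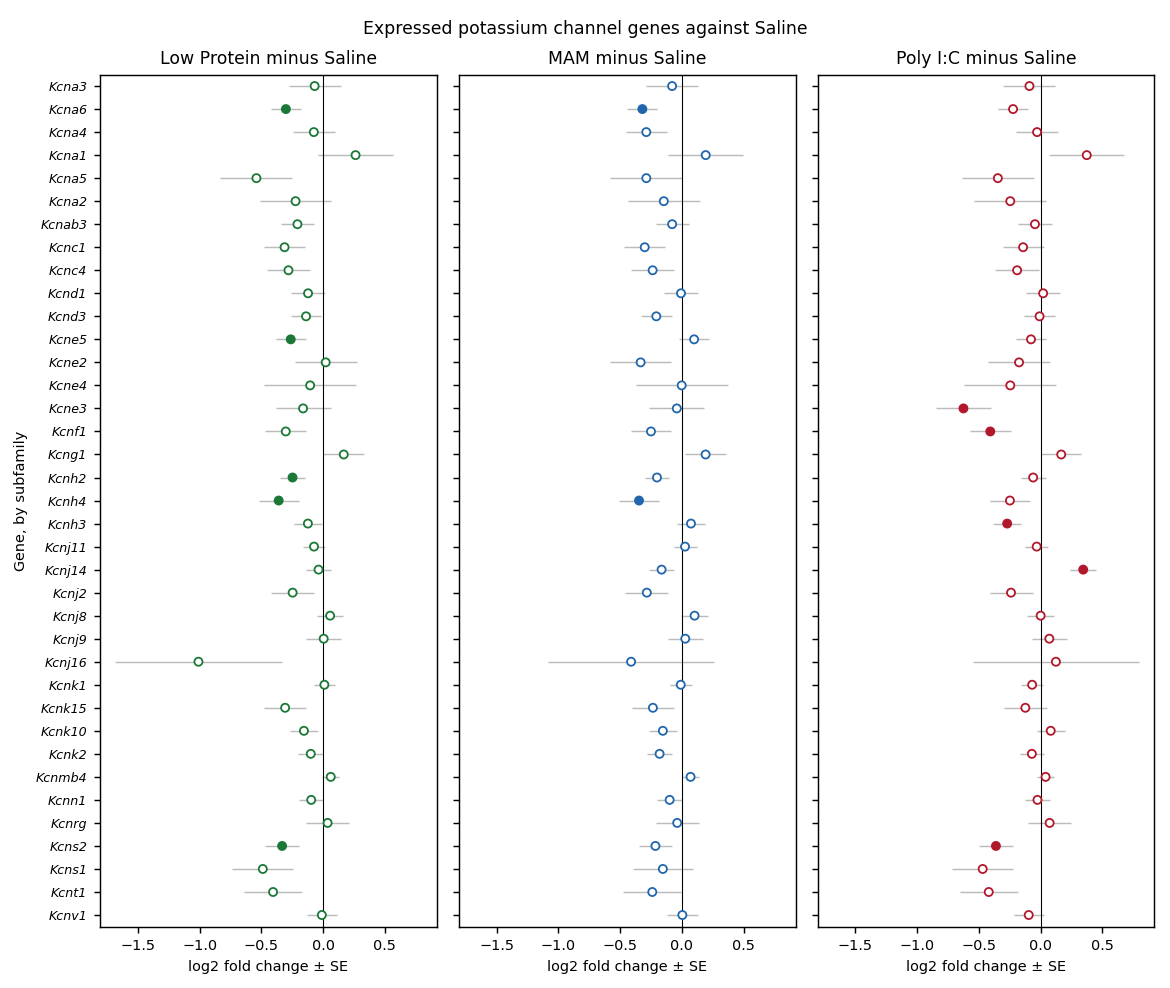
The log2 fold change against Saline (horizontal axis, bars are ± SE from limma) of 37 of the 40 expressed members, one row a gene ordered by subfamily, 1 panel for each treated group; filled points passed an unadjusted p of 0.05. Most points lie left of 0, and Kcnj14 in Poly I:C is the only filled point to the right.

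Among pore subunits of voltage-gated channels, 15, 14 and 14 of 16 expressed genes were lower in the 3 treated groups. Of all genes 53.9%, 71.5% and 46.8% were lower. Kcna6 (Kv1.6) ranged from 0.856 to 1.32 TPM in Saline with a median of 1.01, from 0.724 to 1.01 with a median of 0.817 in Low Protein, from 0.673 to 0.988 with a median of 0.838 in MAM and from 0.674 to 1.12 with a median of 0.902 in Poly I:C. All groups overlapped Saline, and 5 of 6 Low Protein pups and 6 of 6 MAM pups lay below the Saline median. The log2 fold change was -0.30 ± 0.12 (SE) in Low Protein (adjusted p = 0.584 in limma, exact two-sided permutation p = 0.0238) and -0.32 ± 0.12 in MAM (adjusted p = 0.455, exact permutation p = 0.0216). Its highest value was in Saline 2.1, and without that pup the changes were -0.23 and -0.25 and neither passed. Without Low Protein 1.1 the Low Protein call was lost too.

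The Kv1 genes did not all lean one way. Kcna1, the pore of low-threshold axonal channels, varied from 0.283 to 1.27 TPM and its log2 fold changes were 0.26, 0.19 and 0.37, with an SE of 0.30. Kcna3, known from lymphocytes as well as neurons, differed by -0.07, -0.08 and -0.09 with an SE of 0.21. Kcna5 stood at 0.739 TPM in Saline 2.1 and between 0.150 and 0.442 TPM in the other Saline pups, and it passed no test. The Kv3 genes Kcnc1 and Kcnc4 were lower in all 3 groups, by -0.14 to -0.31 on the log2 scale, and neither passed in limma. By the exact permutation test Kcnc1 gave p = 0.0216 in Low Protein and p = 0.0325 in MAM. The Kv4 genes Kcnd1 and Kcnd3 lay at -0.21 to 0.02, and neither passed.

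Kcnh genes of the ether-à-go-go family held 3 of the members that passed. Kcnh2 encodes ERG1, a channel that repolarises heart and brain cells. It ranged from 0.752 to 1.23 TPM in Saline (median 0.953), 0.773 to 0.93 in Low Protein (median 0.788), 0.736 to 0.935 in MAM (median 0.844) and 0.795 to 1.09 in Poly I:C (median 0.900). The 6 Low Protein pups lay within the Saline range, all below its median, and 3 Saline pups were above every Low Protein pup. The change was -0.25 ± 0.10 in Low Protein (adjusted p = 0.588 in limma, exact permutation p = 0.0541), and was -0.18 and did not pass without Saline 2.1, its highest pup. The call was also lost without Saline 2.2.

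Kcnh4 (ELK1) ranged from 0.651 to 1.18 TPM in Saline (median 0.779), 0.495 to 0.765 in Low Protein (median 0.666), 0.552 to 0.746 in MAM (median 0.636) and 0.456 to 0.904 in Poly I:C (median 0.786). Every Low Protein and MAM pup was below the Saline median, and in Poly I:C 3 pups were below it and 3 above. The changes were -0.36 ± 0.16 in Low Protein (adjusted p = 0.612 in limma, exact permutation p = 0.0325) and -0.35 ± 0.16 in MAM (adjusted p = 0.464, exact permutation p = 0.0152). Without Saline 2.1, its highest pup, they were -0.25 and -0.24 and neither passed, nor did either on litter means. Leaving out Saline 1.1, Low Protein 1.1 or Low Protein 2.1 also ended the Low Protein call, and the MAM call held in 16 of the 24 fits that left out 1 pup, failing without Saline 1.1, 1.3, 2.1 or 2.2 or MAM 1.2, 1.3, 2.2 or 2.3.

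Kcnh3 (ELK2), a channel of forebrain neurons, ranged from 0.151 to 0.219 TPM in Saline (median 0.191) and from 0.126 to 0.176 in Poly I:C (median 0.166). It ranged from 0.144 to 0.199 in Low Protein and from 0.179 to 0.237 in MAM. All 6 Poly I:C pups lay below the Saline median and 5 Saline pups above every Poly I:C pup, the exception being Saline 2.1. The change in Poly I:C was -0.27 ± 0.11 (adjusted p = 0.405 in limma, exact permutation p = 0.0303) and was -0.34 without Saline 2.1. It did not pass without Saline 1.2 or Poly I:C 2.2. Poly I:C was also below MAM, by -0.34 ± 0.11, past the same threshold, and it passed the F test. Its gene body overlaps that of Mcrs1 on GRCr8, and whether the counting used strand is not given in the sources used here.

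Of the modifier subunits, Kcnf1 and Kcns2 passed in Poly I:C. Kcnf1 (Kv5.1) ranged from 2.97 to 4.58 TPM in Saline (median 3.33), 2.28 to 3.50 in Low Protein (median 2.64), 2.41 to 3.33 in MAM (median 3.03) and 1.5 to 3.60 in Poly I:C (median 2.83). Saline 2.1, at 4.58 TPM, stood above the other Saline pups (2.97 to 3.43 TPM), and 3 Poly I:C pups were below every Saline pup. The change in Poly I:C was -0.41 ± 0.16 (adjusted p = 0.402 in limma, exact permutation p = 0.0996). Without Saline 2.1 it was -0.33 and did not pass, nor did it without Poly I:C 1.3 or 2.2. Kcns2 (Kv9.2) ranged from 0.635 to 0.812 TPM in Saline (median 0.668), 0.369 to 0.664 in Low Protein (median 0.581), 0.496 to 0.734 in MAM (median 0.614) and 0.427 to 0.710 in Poly I:C (median 0.528).
Of the Low Protein and of the Poly I:C pups, 4 each lay below every Saline pup. The Kcns2 changes were -0.33 ± 0.14 in Low Protein (adjusted p = 0.588 in limma, exact permutation p = 0.0130) and -0.36 ± 0.14 in Poly I:C (adjusted p = 0.355, exact permutation p = 0.0325). The Low Protein call was lost without Saline 1.1 or Low Protein 2.1, the pup with the lowest value (0.369 TPM), and on litter means neither Kcns2 call passed.

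The other modifier subunits gave no call. Kcns1 (Kv9.1) had changes of -0.49, -0.15 and -0.47 with an SE of 0.25. Kcng1 had changes of 0.17, 0.19 and 0.17 with an SE of 0.16, and Kcnv1 (Kv8.1) lay between -0.10 and 0.00. As a set the 5 expressed modifiers had medians of -0.30, -0.15 and -0.36, beside the medians of all genes above.

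**Figure D3:**
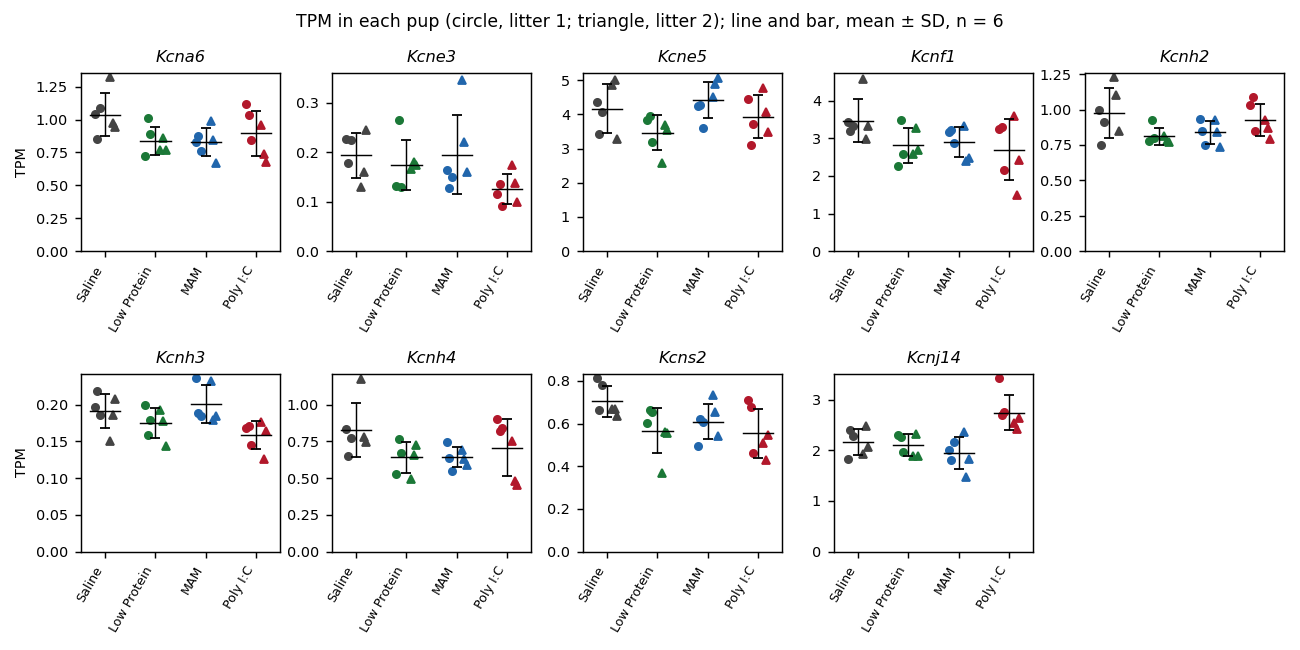
TPM (vertical axis, from 0) in each pup for 9 of the 10 genes that passed an unadjusted p of 0.05 in a comparison with Saline; circles are litter 1, triangles litter 2, and the line and bar are the mean ± SD of 6 pups. Each treated group overlaps Saline in every panel, and in the Kcnj14 panel the Poly I:C pups lie from 2.43 TPM upward, above every Low Protein and MAM pup.

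Of the inward rectifiers, Kcnj14 was the single member of the 40 that was higher at an unadjusted p under 0.05. Kcnj14 encodes Kir2.4, a strong inward rectifier that holds neurons near the potassium potential. It stood at 1.83, 2.41, 2.28, 1.94, 2.47 and 2.06 TPM in Saline 1.1 to 2.3. In Poly I:C it stood at 3.42, 2.71, 2.76, 2.55, 2.43 and 2.63 TPM, in Low Protein it ranged from 1.88 to 2.32 TPM and in MAM from 1.47 to 2.37 TPM. In Poly I:C 5 of 6 pups were above every Saline pup, and the sixth, Poly I:C 2.2, lay among them, while all 6 were above every Low Protein and MAM pup. The change was 0.34 ± 0.10, or 1.27-fold, in Poly I:C (adjusted p = 0.299 in limma, exact permutation p = 0.00433).
The changes in Low Protein and MAM were -0.04 ± 0.10 and -0.16 ± 0.10. Poly I:C was above MAM by 0.51 ± 0.10 and above Low Protein by 0.38 ± 0.10, both past the same threshold. Litter means were 2.96 and 2.54 TPM in Poly I:C and 2.18 and 2.16 TPM in Saline. The call held without any single pup, and without Poly I:C litter 1 the change was 0.23 and did not pass. In the F test its adjusted p in limma was 0.0849, and over the alternatives it ran from 0.0496 without MAM 2.1 to 0.705 on litter means.

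The other inward rectifiers passed no test. Kcnj11, the ATP-sensitive pore, had changes of -0.07, 0.03 and -0.03 with an SE of 0.09, and Kcnj8, the ATP-sensitive pore known from pericytes, had 0.06, 0.10 and 0.00 with an SE of 0.11. The G-protein-gated Kcnj9 lay at 0.00 to 0.07. Kcnj2 (Kir2.1) lay at -0.24 to -0.28 with an SE of 0.17. Kcnj16 was the most variable expressed member, from 0.0137 to 0.307 TPM with a coefficient of variation of 83.4% over the 24 pups, and its -1.01 ± 0.67 in Low Protein did not pass. The glial inward rectifier Kcnj10 had a mean of 0.0741 TPM and reached 0.107 TPM in Poly I:C 2.1.

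Two-pore and calcium- or sodium-activated genes passed no limma test. Kcnk1 differed by 0.01, -0.01 and -0.07 with an SE of 0.09, and Kcnk15 by -0.31, -0.24 and -0.12 with an SE of 0.17. Kcnk2 (TREK-1) and Kcnk10 (TREK-2) lay between -0.18 and 0.08, and Kcnk2 in MAM gave an exact permutation p of 0.0130. Kcnn1 lay between -0.10 and -0.03 with an SE of 0.10. Kcnt1 had changes of -0.41 and -0.42 in Low Protein and Poly I:C with an SE of 0.23, and neither passed.

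Among accessory subunits, Kcne5 ranged from 3.29 to 5.01 TPM in Saline (median 4.21), 2.57 to 3.94 in Low Protein (median 3.61), 3.60 to 5.08 in MAM (median 4.38) and 3.10 to 4.78 in Poly I:C (median 3.89). All 6 Low Protein pups were below the Saline median while 5 of 6 MAM pups were above it. The change in Low Protein was -0.26 ± 0.12 (adjusted p = 0.620 in limma, exact permutation p = 0.0909), and it passed in 17 of the 24 fits that left out 1 pup. It was lost without Saline 1.1, 1.3, 2.1 or 2.2 or Low Protein 1.3, 2.1 or 2.3. MAM was above Low Protein by 0.36 ± 0.12, past the same threshold, and Kcne5 passed the F test.

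Kcne3, an accessory subunit of several voltage-gated channels, had the largest change of the members that passed. It ranged from 0.129 to 0.245 TPM in Saline (median 0.201), 0.129 to 0.265 in Low Protein (median 0.170), 0.128 to 0.346 in MAM (median 0.162) and 0.0912 to 0.174 in Poly I:C (median 0.125). Of the Poly I:C pups all 6 were below the Saline median and 3 below every Saline pup. The change was -0.63 ± 0.22, or 0.648-fold (adjusted p = 0.339 in limma, exact permutation p = 0.0195). Poly I:C was below MAM by -0.58 ± 0.22 and below Low Protein by -0.46 ± 0.22, both past the same threshold, and Kcne3 passed the F test. With a mean of 59.2 estimated reads it is among the thinly covered members, and its body overlaps that of another annotated gene on GRCr8.

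Kcne2 passed no test and was low in 3 pups. It stood at 0.977 TPM in MAM 1.3, 1.30 in MAM 2.3 and 0.912 in Poly I:C 1.3, and at 2.06 to 3.42 TPM in the other 21 pups. The same 3 pups had summed TPM of 57.5, 70.2 and 33.1 over 8 choroid plexus markers (Ttr, Folr1, Kl, Clic6, Otx2, Aqp1, Enpp2, Prlr), against 126 to 249 in the others. Of 7 markers tested 0 passed in any comparison, and the part of choroid plexus RNA in the Kcne2 values was not tested. In bulk tissue fewer cells of a type and less RNA per cell cannot be told apart. Kcnmb4, the brain partner of Kcnma1, was the steadiest expressed member, from 0.326 to 0.426 TPM with a coefficient of variation of 7.32%, and Kcnab3 lay at -0.21 to -0.05 with an SE of 0.13.

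**Figure D4:**
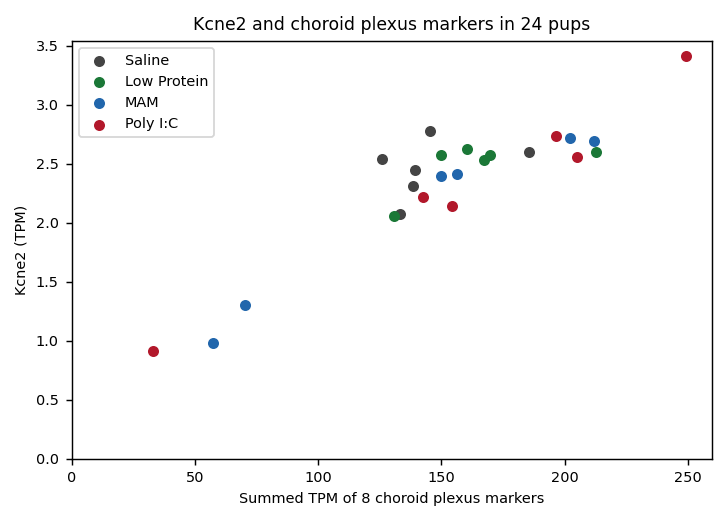
Kcne2 (vertical axis, TPM) against the summed TPM of 8 choroid plexus markers (horizontal axis) in 24 pups, coloured by group. The 2 MAM pups and 1 Poly I:C pup at the lower left have Kcne2 of 0.912 to 1.30 TPM and marker sums of 33.1 to 70.2.

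Pups of a group differed widely. For each pup the log2 difference from the Saline mean was averaged over the 40 expressed members, as a description. It ranged from -0.12 to 0.12 in Saline and, in the treated groups, from -0.26 to -0.01, -0.30 to 0.12 and -0.35 to 0.22. In Poly I:C, pups 1.3, 2.2 and 2.3 lay at -0.30, -0.35 and -0.34, and pups 1.1, 1.2 and 2.1 at 0.22, 0.01 and 0.03, with both litters among the low and the high pups. MAM 2.1 was the highest MAM pup for 25 of the 40 genes, and Poly I:C 1.1 the highest Poly I:C pup for 20.

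**Figure D5:**
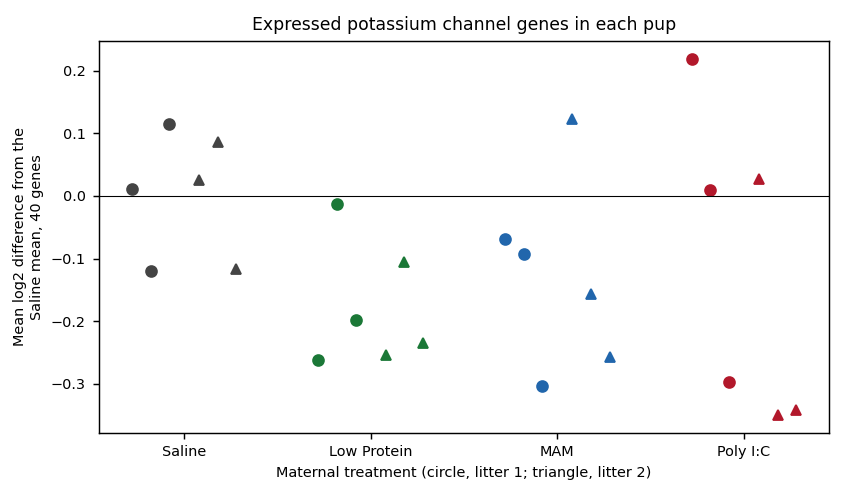
Mean log2 difference from the Saline mean over the 40 expressed members (vertical axis), one point a pup, by group, with circles for litter 1 and triangles for litter 2. Low Protein pups all lie below 0, and Poly I:C pups run from -0.35 to 0.22.

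Litters moved the Poly I:C result. Without Poly I:C litter 2 the members were 21 lower and 19 higher with a median of -0.01, where 42.9% of all genes were lower. Of these members 4 passed, where 4.68% of all genes did. Without Poly I:C litter 1 the members were 32 lower and 8 higher with a median of -0.24, where 50.4% of all genes were lower. In that fit 14 passed, where 19.2% of all genes did. Kcns2 was then -0.51 and Kcnf1 -0.54, and without litter 2 they were -0.21 and -0.27 and neither passed. Kcne3 moved the other way, with -0.50, which did not pass, without litter 1 and -0.75, which did, without litter 2.
On litter means 9 of the 13 calls passed and 4 did not, those of Kcnh4 and Kcns2. Each of the 13 calls was lost without at least 1 of the 8 litters. Without Saline litter 2 the calls of Kcna6, Kcne5, Kcnh2, Kcnh4 and Kcnf1 were lost, and without Saline litter 1 those of Kcns2, Kcne3 and Kcnh3. All 5 Low Protein calls were lost without Low Protein litter 2, and both MAM calls without MAM litter 1. Kcnh3 was lost without Poly I:C litter 2, and the Kcnh4 calls also without Low Protein litter 1 or MAM litter 2.

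Saline 2.1 stood apart, with summed TPM of 212 over 9 interneuron markers against 123 to 145 in the other Saline pups and of 127 over 7 cortical projection neuron markers against 205 to 255. It was the highest Saline pup for 11 of the 40 members and the lowest for 13. Without it 2, 1 and 5 members passed, where 5.49%, 16.1% and 6.84% of all genes did. Then 33, 32 and 30 of 40 were lower, where 60.8%, 72.7% and 52.4% of all genes were. In Low Protein 6 of 9 tested interneuron markers passed at an unadjusted p under 0.05, all lower, with a median of -0.39, and the pups' sums ran from 86.3 to 123. In MAM 3 of 9 passed, all lower, with a median of -0.26 and sums of 110 to 136. In Poly I:C 1 of 9 passed, lower, with a median of -0.22 and sums of 71.4 to 129. Of all genes 4.84%, 8.15% and 5.53% were lower at that p in the 3 comparisons. These marker counts and medians keep Saline 2.1 in the Saline group and were not made again without it.
The lowest Poly I:C sum was in pup 2.2. The part of interneuron RNA in the member values was not tested.

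Genes for related functions were counted the same way. Of 37 other voltage-gated and cyclic nucleotide-gated cation channel genes 17 were tested, and 6, 2 and 1 were lower past an unadjusted p of 0.05 and 0 higher, with medians of -0.24, -0.17 and -0.15, where 4.84%, 8.15% and 5.53% of all genes were lower at that p. The 6 in Low Protein were Cacna1b, Cacna1g, Cacna2d2, Cacnb1, Cacnb3 and Hcn2, the last (a pacemaker channel) at -0.39 ± 0.15, and Scn3a and Scn3b, sodium channel genes of the embryonic brain, were the 2 in MAM. Of 18 tested genes for potassium pumps, transporters and partners 4, 2 and 2 were lower and 0 higher, beside the same shares of all genes, with medians of -0.06, -0.12 and -0.07. In Low Protein these included the sodium pump genes Atp1b1 and Atp1b2 and Slc12a5, the chloride extruder KCC2, at -0.50 ± 0.22. None of the genes of these lists passed adjustment in limma, where the adjusted p of Atp1b1 in MAM was 0.455.

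Testing by reads in place of TPM brought in the long genes. Taking genes that averaged 10 or more estimated reads, a filter chosen after the values were seen, 12275 genes and 81 members were tested. At an unadjusted p under 0.05, 13, 8 and 13 members passed, against 7.3%, 9.96% and 9.48% of genes, and 10 passed the F test against 13.3%. Of the 81, 64, 64 and 62 were lower (79.0%, 79.0% and 76.5%), where 55.0%, 71.9% and 48.9% of all genes were. None passed adjustment in limma, where the lowest adjusted p was 0.317 for Kcng2 in Poly I:C and 0.102 for Kcnj14 in the F test.
Kcng2 (Kv6.2), one more modifier, ranged from 0.0341 to 0.0558 TPM in Saline (median 0.0416) and from 0.0210 to 0.0386 in Poly I:C (median 0.0298), with a change of -0.51 ± 0.15 (exact permutation p = 0.0108). Kcng3 (Kv6.3) ranged from 0.00672 to 0.0110 TPM in Saline (median 0.00959) and from 0.00226 to 0.00645 in MAM (median 0.00511), and its MAM pups did not overlap Saline. Of all 12275 genes tested 0.701%, 0.896% and 0.456% did not overlap in the 3 comparisons. The Kcng3 change in MAM was -1.0 ± 0.34 (adjusted p = 0.474 in limma, exact permutation p = 0.00216, the smallest that 6 against 6 pups allow), on a mean of only 14.4 estimated reads. The MAM pups of Kcnip2 did not overlap Saline either (highest 0.00694 TPM against a lowest Saline value of 0.00702), but at a mean of 7.96 estimated reads, an unreliable estimate for this gene, it was not tested. Kcng3 also passed in the other groups, with -0.94 under Poly I:C and -0.79 under Low Protein, and overlapped Saline there.

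Other members below 0.1 TPM that passed in this wider test had these values. Kcnk3 (TASK-1), a two-pore channel of resting neurons, ranged from 0.0721 to 0.126 TPM in Saline (median 0.0975) and from 0.0551 to 0.0885 in Low Protein (median 0.0698), with a change of -0.45 ± 0.14 (adjusted p = 0.590 in limma). In MAM it was -0.33 ± 0.14. Kcnk9 (TASK-3) was at -0.55 ± 0.24 under Poly I:C and -0.51 ± 0.24 under Low Protein. Kcnc2, a Kv3 pore, was at -0.58 ± 0.21 in Low Protein and -0.51 ± 0.21 in MAM. Kcnip3, a calcium-binding partner of Kv4 pores, was at -0.60 ± 0.19 in Poly I:C, and Kcnma1, the large-conductance pore, at -0.40 ± 0.19 in MAM.
The rest were Kcnab2, Kcnj4 and Kcnk16 in Poly I:C, Kcnh5, Kcnh6 and Kcnk4 in Low Protein, and Kcnmb2 and Kcnq5 in MAM, all lower, and Kcnj15 in the F test. For Kcnk16, Poly I:C 1.2, 1.3 and 2.3 stood at the offset and the lowest Saline value was 0.00243 TPM, so its change depends on the offset.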

How the data were processed

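Paired-end libraries (TruSeq Stranded mRNA) were aligned by the authors to rn6 with STAR (version 2.4.1d), and the authors deposited TPM values made in Partek, with an offset of 0.0001. The values used here sum to 70350.1 in every pup. The table holds no counts, so depth was estimated from the steps of low values times gene spans on GRCr8 (25 to 65 M reads per pup), which is approximate, and counting error was not modelled. Litter was read from the first digit of the sample number. No 2 pups shared values beyond 0.0152% of genes.

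Genes with a mean of at least 0.1 TPM were compared on log2 of the deposited values (limma 3.58.1 in R 4.3.3, lmFit and eBayes with a variance trend, all 24 pups, group as factor), with Benjamini-Hochberg adjustment over all genes tested. The study used an unadjusted threshold of 0.05 too, joined for Low Protein and Poly I:C to a minimum fold change that was not applied here. Single genes were also compared by exact two-sided permutation over 924 splits of 6 against 6 pups (smallest p 0.00216). A fold change of a gene near the offset depends on the offset. Scripts were tested on simulated data. The members and gene lists were chosen with earlier results of these data known. Named genes were every member past an unadjusted p of 0.05, the 2 highest of each subfamily with an expressed member and the 3 on either side of 0.1 TPM. Marker lists not named in the report held 0 to 2 genes past an unadjusted p of 0.05 per comparison, except neuronal maturation in MAM (3 of 8, lower). Alternatives were other filters, pseudocounts of 0.01 and 0.1, 2 other scalings, no variance trend, litter or replicate blocks, litter means and leaving out pups or litters. A filter of 10 or more estimated reads was chosen after the data were seen. Some genes the rule would name are not reported here.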

Additional observations from a re-analysis of the deposited data

Results flagged for a closer look

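Within a group of 6 pups, the lowest or highest pup was tested for its distance from the others (Dixon's test on log2 TPM) in 116 groups of the 29 named expressed members, and 11 stood apart, where chance flags about 1 in 20. Low Protein 2.3 was the lowest of its group for 4 genes: Kcnab3 (0.314 TPM, others 0.434 to 0.521), Kcne2 (2.06 TPM, others 2.53 to 2.62), Kcng1 (1.56 TPM, others 2.31 to 2.72) and Kcnk1 (0.313 TPM, others 0.414 to 0.451). Saline 2.1 was the highest for Kcnf1 (4.58 TPM, others 2.97 to 3.43) and the lowest for Kcng1 (1.19 TPM, others 1.98 to 2.56). Poly I:C 1.3 was the lowest for Kcne2 (0.912 TPM, others 2.14 to 3.42) and Kcng1 (1.49 TPM, others 2.45 to 2.67). The other 3 were Kcnd1 in MAM 2.1 (0.657 TPM, others 0.415 to 0.478), Kcnh2 in Low Protein 1.2 (0.93 TPM, others 0.773 to 0.811) and Kcns2 in Low Protein 2.1 (0.369 TPM, others 0.556 to 0.664).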

How the results depend on the processing

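All medians stayed below 0, and the 13 calls kept their sign in every alternative run. No median moved by more than the SD of the pup scores of its treated group. For Poly I:C that SD is 0.24, larger than the median of -0.09 itself, so this limit cannot show that the median is stable. The Poly I:C median ran from -0.24 without its litter 1 to -0.01 without its litter 2. Counts past an unadjusted limma p of 0.05 moved more. With a mean above 1 TPM in each group, 12 members were tested. Of these 1, 0 and 2 passed (Low Protein, then MAM, then Poly I:C), against 8.26%, 11.3% and 9.97% of all genes, and 2 passed the F test. With a mean of at least 0.01 TPM, 71 members were tested and 10, 5 and 11 passed, against 7.24%, 9.83% and 9.36% of all genes. With at least 10 estimated reads (chosen after the data were seen) 13, 8 and 13 of 81 members passed, and 10 in the F test. The shares of all genes were then 7.3%, 9.96% and 9.48%, and 13.3% in the F test. Fits of only the 2 groups compared gave 10 in Low Protein and 6 in MAM, without a share of all genes to set beside them. Either scaling gave 1 in MAM, where 8.85% (median of ratios) and 8.74% (upper quartile) of all genes passed. Litter means gave 7, 3 and 7, where 5.23%, 5.03% and 6.31% of all genes passed, and 2 in the F test. For the F test the share of all genes was taken only with the main filter and with at least 10 estimated reads. Leaving out 1 pup or litter gave 1 to 10, 0 to 6 and 4 to 14 in the same order, while the share of all genes that passed ran over 4.66 to 9.90%, 3.31 to 16.1% and 4.68 to 19.2%, and 1 to 9 in the F test, with medians of -0.20 to -0.11, -0.22 to -0.11 and -0.24 to -0.01. A replicate block gave 8, 2 and 6, where 10.4%, 13.7% and 12.1% of all genes passed, and 5 in the F test. It ended the Kcnh4 call in MAM. Same-numbered pups of 2 groups deviated together with r over 0.1 in 15 of 36 pairs (-0.38 to 0.39). By number the median r ran from -0.06 (1.1) to 0.21 (2.3). Pups of 2 groups with unlike numbers were not compared in this way, so whether the numbers pair the pups was not tested. The cause of the moves in the counts was not tested. Of the 40 members at or above 0.1 TPM, low reads limit Kcne3, Kcns1 and Kcna5 most, with means of 48.4 to 59.2 estimated reads.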
